A study of Mus musculus with 2 samples.

Results

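The genes described here are 31 regulators of pre-mRNA splicing, taken by name from the 32285 genes of the deposited tables, 32235 of which the mouse annotation named. They are 10 SR proteins (Srsf1 to Srsf7, Srsf9, Srsf10 and Srsf11), Tra2a and Tra2b, the 4 CLK kinases (Clk1 to Clk4), the cyclins Ccnl1 and Ccnl2, the RNA-binding proteins Rbm3, Rbm5, Rbm25 and Rbm39, Luc7l, Luc7l2 and Luc7l3, the arginine- and serine-rich speckle proteins Pnisr, Son, Srrm1 and Srrm2, and the helicases Ddx5 and Ddx17. The study sequenced single cells of mouse retinae in 1 control library and 1 light damage library. All mice were 6 to 9 weeks old, of both sexes, on a Balb-C/CD1 background, homozygous for the leucine variant of RPE65, and carried floxed Tgfbr2 alleles, with no Cre stated. All were dark-adapted for 18 h. Light damage mice then received 5000 lx of white fluorescent light for 30 min and 6 h of recovery in dim light, and controls received no light. Each library pooled the retinae of 3 to 5 mice, so that there was no replicate and no test of a condition was possible. All intervals given are 95% intervals that cover counting error only.

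SR proteins bind exons through an RNA recognition motif and recruit the splicing machinery through a tail rich in arginine and serine. CLK kinases phosphorylate this tail, which releases SR proteins from nuclear speckles, and L-type cyclins also sit in speckles and influence splice site choice. Many transcripts of these regulators are known to carry detained introns. Such transcripts are polyadenylated but keep an intron, stay in the nucleus, and can be spliced and exported when the cell is stressed.

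The tables held unique molecular identifiers (UMIs, the count of captured RNA molecules) of each gene in 3 classes: spliced, unspliced, and ambiguous, which are reads compatible with both. Since an exonic read of an unspliced RNA also counts as spliced, a spliced UMI does not by itself show a spliced RNA. The files do not place reads on single introns. The control library held 30605284 UMIs, 18.7% of them unspliced, and the light damage library 54413601 UMIs, 32.7% unspliced. Droplets with over 1% rod marker UMIs were split by their unspliced share into cytoplasm-rich rods (under 15%, 2312 control and 1865 light damage droplets), intermediate rods (318 and 405) and nucleus-rich rods (at least 40%, 600 and 2770). Marker UMIs also gave 122 and 78 cone-like, 153 and 287 RPE-like (retinal pigment epithelium) and 44 and 23 Müller-like droplets. The rod markers, Gnat1 and Sag among them, held 8.40% and 8.21% of UMIs in cytoplasm-rich rods of the control and the light damage library, and 4.92% and 3.82% in nucleus-rich rods. Mitochondrial UMIs held 3.62% and 3.36% in cytoplasm-rich and 0.446% and 0.403% in nucleus-rich rods, while markers of each other cell type stayed under 0.02% in both. Rods were named by these markers, and droplets with at least 3 markers of another list were left out of them, so that these marker shares follow from the naming. Mitochondrial RNA, which the naming did not use, was low in nucleus-rich rods. The lists that named the other classes held 1.21% and 1.96% of UMIs in cone-like, 9.19% and 7.5% in RPE-like and 1.90% and 0.940% in Müller-like droplets. Nucleus-rich rods of the libraries also differed in their unspliced share (61.7% in control, 55.6% in light damage). Xist was read 3060 times in control and 2 times in light damage nucleus-rich rods, so that the sex make-up of the pools cannot be told apart from the light condition. Of the 31 genes, only Rbm3 is on the X chromosome.

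Introns that the annotation lists as retained were placed for 19 of the 31 genes. GENCODE vM21 (mouse build GRCm38) holds a transcript of the class retained intron for 27 of the 31 genes (87.1%), against 66.8% of protein-coding genes with at least 50 UMIs in control nucleus-rich rods, and a transcript of the class nonsense-mediated decay for 29 (93.5%, against 33.8%). The 54 placed introns were 21 to 3527 bases long, with a median of 648.5 bases, and all ran from GT to AG. Clk1 and Clk4 are shown because their nuclear ratios were the highest in control rods (given further on) and the same place is retained in both. Clk2 and Clk3, whose control ratios were lower, also have annotated retained introns on both sides of an exon, so that this feature is not particular to Clk1 and Clk4. Clk1 (chr1:58410189-58424066, minus strand) and Clk4 (chr11:51261730-51281766, plus strand) each have annotated transcripts that retain the introns on both sides of a 91-base exon, at chr1:58420121-58420211 and chr11:51273078-51273168. The intron before that exon had 871 bases in Clk1 (chr1:58420212-58421082) and 1055 in Clk4 (chr11:51272023-51273077), and the intron after it 387 (chr1:58419734-58420120) and 391 (chr11:51273169-51273559). The 5′ splice sites of these introns, 3 exon bases and 17 intron bases with the GT in capitals, and the 3′ splice sites, 25 intron bases and 3 exon bases with the AG in capitals, read 5′ to 3′ as follows.
Clk1 before the exon, 5′ site: gggGTatgagtgccttttaa
Clk4 before the exon, 5′ site: tcgGTatgagtggtttgttt
Clk1 after the exon, 5′ site: gatGTatagaatatttttca
Clk4 after the exon, 5′ site: gatGTatagaatatttttca
Clk1 before the exon, 3′ site: ggtgccgcccacttgacgtgtccAGaag
Clk4 before the exon, 3′ site: tggtgctgcccacttgccgttccAGaag
Clk1 after the exon, 3′ site: aataataattattcctcttttttAGatg
Clk4 after the exon, 3′ site: cctctctttctctcccttactttAGatg
The 5′ sites after the exon were identical in all 20 bases and those before it in 13 of 20. Lined up at the AG, both pairs of 3′ sites were identical in 14 of 28 bases. With 1 site moved by 1 base, the pair before the exon matched in up to 19 of 27 bases and the pair after it in up to 10 of 27. Tra2a, which had the largest ambiguous share of the 31 genes in control nucleus-rich rods, has an annotated retained intron of 1238 bases at chr6:49245611-49246848 on the minus strand.
Tra2a 5′ site: tcaGTaagattgggttttat
Tra2a 3′ site: cctttcccccttcatttttctgtAGcag

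The first comparison asked how far these transcripts were found in nucleus-rich rather than cytoplasm-rich rods of the same library. Levels are UMIs scaled per 1e6 (CPM) of the spliced plus ambiguous UMIs of a droplet class. Ratios are log2 ratios of CPM relative to the median gene, and a gene was counted as higher or lower past 1.5-fold (0.58 on the log2 scale) with at least 50 UMIs over both groups. The summed level of the 31 genes was 5533 CPM in cytoplasm-rich and 14140 CPM in nucleus-rich rods of the control, and 6602 and 17030 CPM in light damage. In control, 17 of 31 genes were higher and 3 lower in nucleus-rich rods, where 31.4% of 8642 genes were higher and 33.1% lower. In light damage, 23 of 31 were higher and 0 lower, against 38.8% higher and 22.5% lower of 10320 genes. The median ratio was 0.72 in control and 0.99 in light damage, beside medians of -0.02 and 0.25 over all genes tested. Among genes with at least 500 UMIs the background was 14.4% higher and 56.4% lower in control, and 28.0% and 32.2% in light damage. The median gene itself lay 0.71 and 0.48 higher (log2) in nucleus-rich rods before this centring, and without it 26 of the 31 genes were higher in control, against 53.2% of all genes.

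Clk1 and Clk4 had the highest ratios in control, and Ccnl1 the highest in light damage. Clk1, a kinase of SR proteins, was at 24.1 CPM in cytoplasm-rich and 328 CPM in nucleus-rich rods of the control (179 and 403 UMIs), a log2 ratio of 3.06 (2.80 to 3.32). In light damage it was at 71.2 and 459 CPM (447 and 3928 UMIs), a ratio of 2.21 (2.07 to 2.36). Clk4, its closest paralog among these genes, was at 20.0 and 188 CPM in control and 28.7 and 198 CPM in light damage, with ratios of 2.52 (2.22 to 2.83) and 2.31 (2.09 to 2.54). For both kinases the levels in nucleus-rich rods of either library lay above those in cytoplasm-rich rods of both. Clk3 gave 1.05 (0.58 to 1.51) and 0.64 (0.36 to 0.93), and Clk2 0.47 (-0.11 to 1.03) and 0.77 (0.46 to 1.08), Clk2 resting on 37 UMIs in control nucleus-rich rods. All 4 kinases were thus past the fold in light damage and 3 of 4 in control, against 38.8% and 31.4% of all genes. Ccnl1, the cyclin partner of CDK11 kinases, was at 47.4 and 367 CPM in control and 69.6 and 729 CPM in light damage, with ratios of 2.24 (2.04 to 2.45) and 2.91 (2.77 to 3.05). Its paralog Ccnl2 gave 1.69 (1.42 to 1.96) and 1.79 (1.62 to 1.96).

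The SR proteins spread over both directions. Srsf2, an SR protein that stays in the nucleus, was at 84.0 and 463 CPM in control and 91.2 and 634 CPM in light damage, with ratios of 1.75 (1.59 to 1.92) and 2.32 (2.19 to 2.45). Srsf1, the founding SR protein, gave 1.73 (1.56 to 1.89) and 1.72 (1.59 to 1.85). Srsf7, which shuttles between nucleus and cytoplasm, gave 1.13 (0.95 to 1.30) and 1.72 (1.58 to 1.87), and Srsf6 0.72 (0.44 to 0.99) and 1.42 (1.24 to 1.59). Against these, Srsf3, a shuttling adaptor of mRNA export, was at 441 CPM in cytoplasm-rich and 362 CPM in nucleus-rich control rods, a ratio of -0.99 (-1.14 to -0.85), and Srsf9 was the lowest at -1.29 (-1.63 to -0.96), followed by Srsf4 at -0.73 (-1.02 to -0.44). In light damage these 3 genes gave -0.21, -0.27 and -0.17 and were not past the fold. The median of the 10 SR proteins was 0.26 in control (4 higher, 3 lower) and 0.76 in light damage (6 higher, 0 lower). Of all genes, 31.4% were higher and 33.1% lower in control, and 38.8% and 22.5% in light damage. The SR-like activators Tra2a and Tra2b were past the fold in both libraries, Tra2a at 2.17 (2.0 to 2.33) and 2.01 (1.86 to 2.17), and Tra2b at 0.61 (0.43 to 0.79) and 0.96 (0.86 to 1.05). The control value of Tra2b rested on ambiguous UMIs, since spliced UMIs alone gave -0.11 (-0.36 to 0.13). Ambiguous UMIs also held 78.5% of spliced plus ambiguous UMIs of Tra2a, 57.9% of Srsf7 and 73.2% of Luc7l2 in control nucleus-rich rods. In cytoplasm-rich control rods they held 5.46%, 4.25% and 36.5%. The control ratios of Tra2a, Srsf7 and Luc7l2 thus rested largely on ambiguous UMIs, and those of other genes in part. Their ratios by spliced UMIs alone are not given here, so that a place past the fold holds for spliced plus ambiguous UMIs only.

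Of the RNA-binding proteins, Rbm5, a regulator of apoptosis genes' splicing, gave 2.29 (2.10 to 2.49) in control and 1.98 (1.84 to 2.12) in light damage, and Rbm25 gave 2.18 (2.03 to 2.32) and 1.78 (1.68 to 1.89). Rbm39 gave 0.30 and 0.56, and the cold-inducible Rbm3 gave -0.24 (-0.55 to 0.06) and 0.91 (0.71 to 1.12). Most UMIs of Rbm3 were ambiguous, and its spliced UMIs alone gave 2.45 (1.77 to 3.14) and 2.29 (1.79 to 2.83). Pnisr was the highest of the speckle proteins at 2.21 (2.07 to 2.36) and 1.96 (1.85 to 2.07). The scaffold proteins of nuclear speckles, Son and Srrm2, were lower, at 0.45 and 0.52 in control and 0.46 and 0.99 in light damage, and Srrm1 was at -0.15 and 0.10. The U1 snRNP associated Luc7l2 gave 1.46 (1.29 to 1.63) and 1.29 (1.17 to 1.41), Luc7l3 0.81 and 1.09, and Luc7l 0.53 and 0.73. Ddx17 gave 1.29 (1.14 to 1.43) and 1.63 (1.52 to 1.73). Its paralog Ddx5, at 1512 to 3970 CPM the most abundant of the 31 genes in rods, gave 0.19 and 0.43. The genes nearest the fold in control were Tra2b (0.61) just past it and Luc7l (0.53) and Srrm2 (0.52) just short of it. The remaining SR proteins Srsf5, Srsf10 and Srsf11 lay between 0.11 and 0.32 in control and between 0.48 and 0.82 in light damage.

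**Figure D1:**
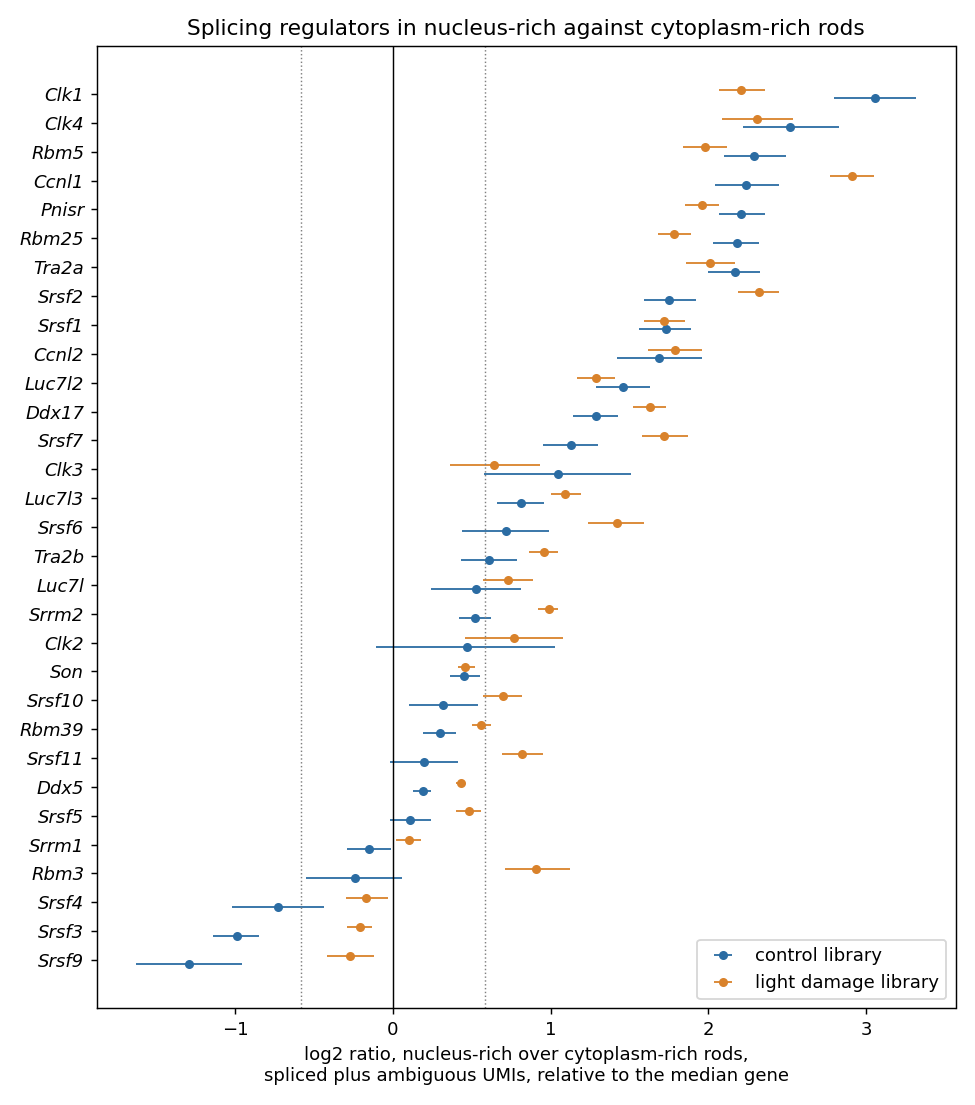
Log2 ratio of spliced plus ambiguous CPM in nucleus-rich over cytoplasm-rich rods, relative to the median gene (x axis), for the 31 genes (y axis, ordered by the control ratio); points are the control (blue) and light damage (orange) library, bars are 95% counting intervals and dotted lines mark 1.5-fold. Clk1 lies at 3.06 and 2.21 and Clk4 at 2.52 and 2.31, while Srsf9 lies at -1.29 and -0.27.

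Other genes of the splicing machinery were counted in the same way. Of all genes, 31.4% were higher and 33.1% lower in control, and 38.8% and 22.5% in light damage. Among genes with at least 500 UMIs these shares were 14.4% and 56.4% in control, and 28.0% and 32.2% in light damage. Of 23 hnRNP genes, RNA-binding proteins that often oppose SR proteins, 0 were higher and 9 lower in control (median -0.42), and 2 were higher and 7 lower in light damage (median -0.30). Pcbp2 (-1.65) and Hnrnpa1 (-1.69) had the largest control changes among them. Of 38 core spliceosome genes, 4 were higher and 21 lower in control (median -0.74), and 4 higher and 14 lower in light damage (median -0.47), with the U1 protein gene Snrnp70 at 3.62 and 3.55 and Snrpd2 at -2.79 and -2.04. Other arginine- and serine-rich and speckle genes had medians of 0.36 and 0.56, with 12 of 26 higher in each library, Nktr at 3.56 and 3.11. SR protein kinases outside the CLK family, the SRPK and DYRK kinases and Prpf4b, had 4 of 5 higher in control and 2 of 5 in light damage, Srpk2 at 1.28 and 1.48. Of splicing regulators known from neurons and retina, 7 of 16 were higher and 4 lower in control (median 0.43), and 5 higher and 3 lower in light damage (median 0.29), with Qk at 2.74 and 2.08. As a check of the split, nuclear long non-coding RNAs had medians of 6.62 and 5.84, and all 4 and 5 tested were higher.

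The level of the 31 genes followed the unspliced share of the droplet. In the control, their summed CPM was 5513 in rods under 5% unspliced, 6808 at 15 to 25%, 8380 at 25 to 40%, 11570 at 40 to 50% and 16060 at 60 to 70%, and it was 15500 from 70%. In light damage it was 6665 under 5%, 8324 at 15 to 25%, 14900 at 25 to 40%, 16200 at 40 to 50%, 18630 at 60 to 70% and 17440 from 70%. The libraries thus differed most at 25 to 40% unspliced, where mitochondrial UMIs also differed (2.04% in control and 0.706% in light damage), and the part of this difference in the result was not tested. The sums were not carried by few droplets: the median droplet held 5288 and 6425 CPM of the 31 genes in cytoplasm-rich rods and 13730 and 16930 CPM in nucleus-rich rods, and no gene with at least 50 UMIs had over 6.35% of them in 1 nucleus-rich droplet. CPM along this axis were not centred, and no value over all genes was computed per range. Before centring, the median gene also lay higher in nucleus-rich than in cytoplasm-rich rods, by 0.71 in control and 0.48 in light damage (log2).

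**Figure D2:**
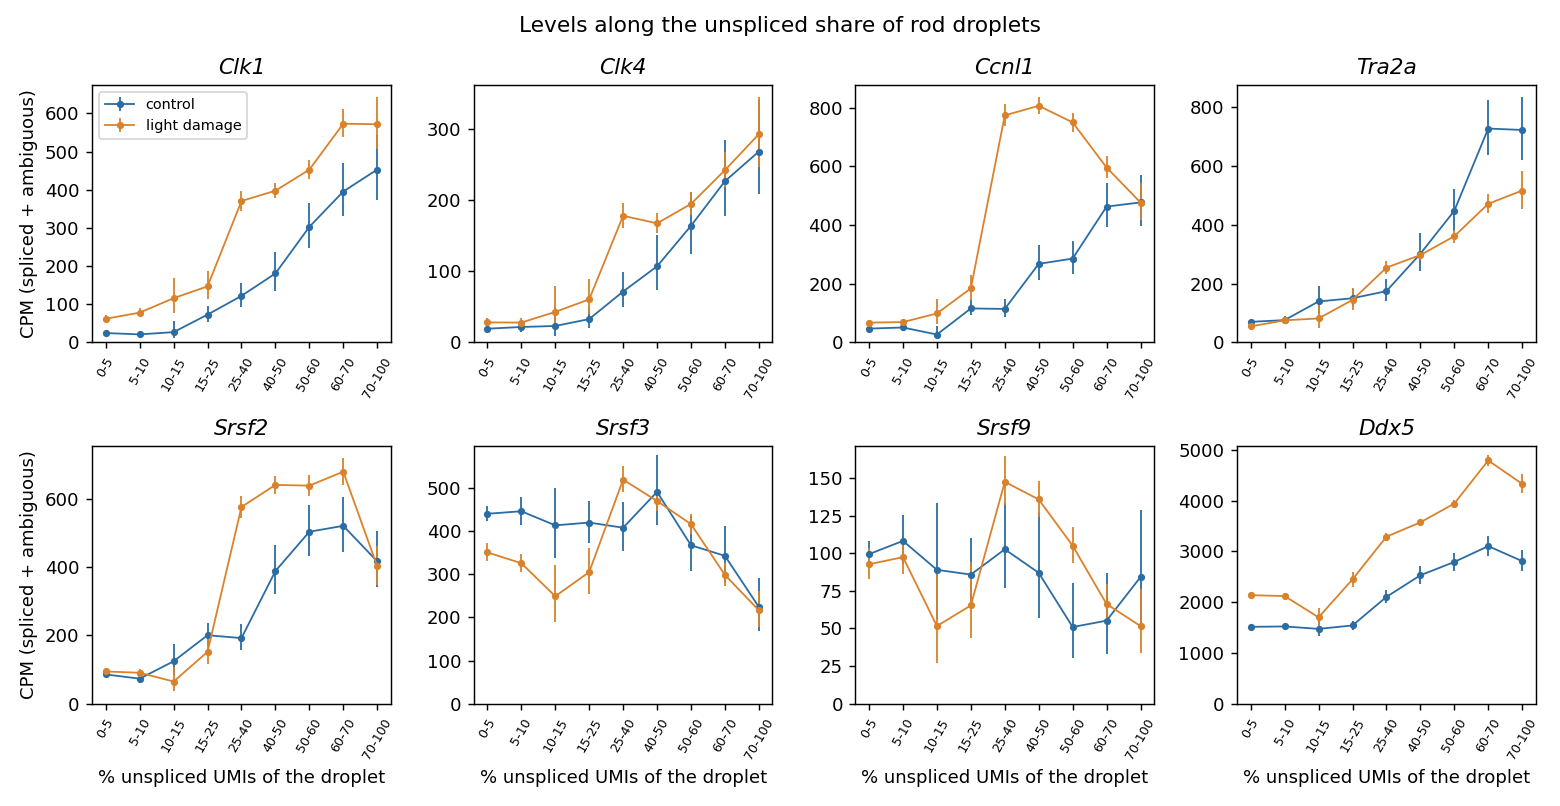
Spliced plus ambiguous CPM (y axis, linear, each panel with its own scale from 0) against the unspliced share of rod droplets in 9 ranges (x axis, %), for 8 genes in the control (blue) and light damage (orange) library, with 95% Poisson intervals. Clk1 lies at 24.7 and 62.1 CPM in the lowest range and at 453 and 572 CPM in the highest, whereas Srsf3 and Srsf9 are not higher in the highest range than in the lowest.

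Along this axis the genes took different courses. Clk1 was at 24.7 CPM (20.8 to 29.2) under 5% unspliced and 453 CPM (373 to 545) from 70% in control, and at 62.1 CPM (53.9 to 71.3) and 572 CPM (506 to 643) in light damage. Ccnl1 in light damage was already at 774 CPM (737 to 811) at 25 to 40% unspliced and at 477 CPM (417 to 542) from 70%, whereas in control it was at 114 CPM (87.0 to 147) and 477 CPM (395 to 571). At the highest unspliced share the levels of Ccnl1 in the libraries thus agreed within counting error, and they differed most at 25 to 60%. Of the control UMIs of Ccnl1 in rods at 15 to 40% unspliced, 20.7% came from 1 droplet. Ddx5 was higher in light damage in all 9 ranges, at 2135 against 1511 CPM under 5% and 4329 against 2806 CPM from 70%, with intervals that overlapped only at 10 to 15%.

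The unspliced share of a gene's own UMIs was low for most of the 31 genes, even in nucleus-rich rods. Droplets were split by the unspliced share of all genes, so that members are set beside all genes of the same droplets. The median over the 31 genes was 24.3% in control and 17.6% in light damage nucleus-rich rods, against 58.3% and 50.7% over all genes with at least 50 UMIs. Only 2 genes in control and 3 in light damage lay above the median of all genes. The range ran from 0 of 568 UMIs for Srsf2, which allows a share of up to 0.528% (3 UMIs), to 78.0% for Srsf4 in control, and from 0.07% to 64.4% for the same genes in light damage. Clk1 was at 13.7% and 13.02%, Clk4 at 28.9% and 24.7%, Clk2 at 75.5% and 51.9%, and Ccnl1 at 12.3% and 7.35%. The introns of a gene summed to a median of 11.6 kb over the 31 genes, from 0.82 kb in Srsf1 to 52.3 kb in Luc7l2, against 28.7 kb for 7218 protein-coding genes in control and 24.2 kb for 10895 in light damage. Per kilobase of intron the 31 genes held more unspliced UMIs, with medians of 3.73 against 1.39 unspliced CPM in control and 4.29 against 0.862 in light damage. These values were not corrected for the level of a gene, and the set of all genes differed between the libraries. They do not by themselves show that introns were kept more often. Across genes, intron length and unspliced share had a Spearman correlation of 0.71 over the 31 genes in each library, and of 0.76 and 0.77 over all these genes. Genes of 1 library share its capture and are not independent replicates.

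**Figure D3:**
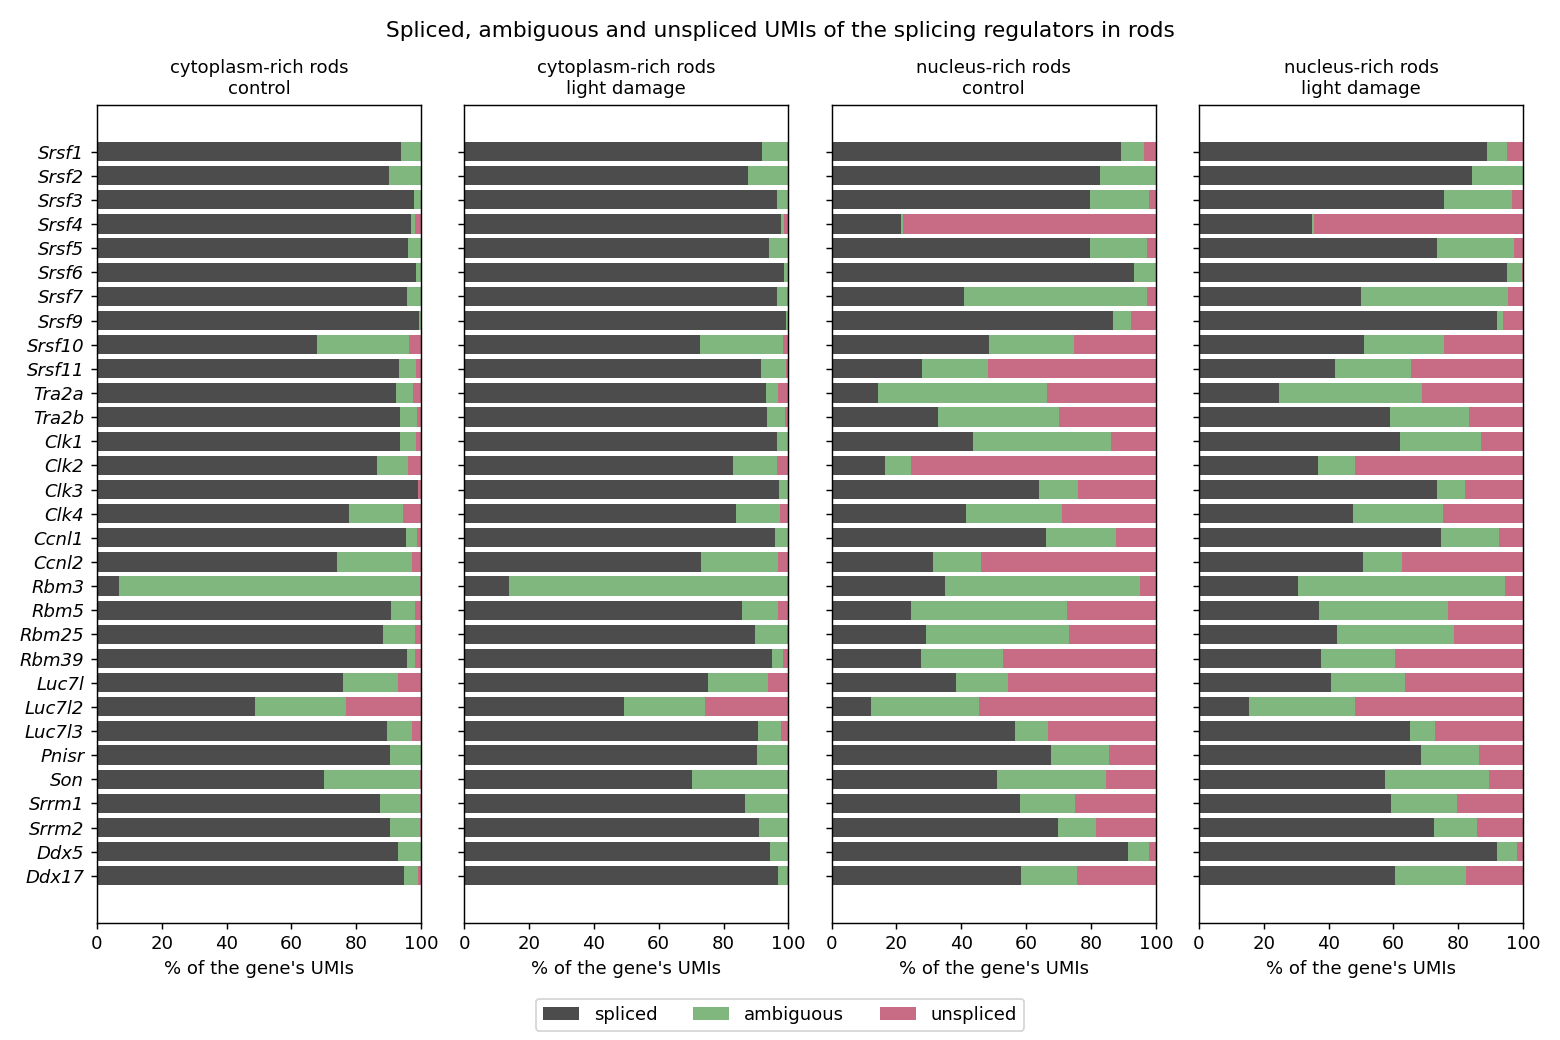
Share of each gene's UMIs (x axis, %) that was spliced (dark), ambiguous (green) or unspliced (red) in cytoplasm-rich and nucleus-rich rods of each library, for the 31 genes (y axis). In control nucleus-rich rods Tra2a was 14.3% spliced and Clk1 43.7% spliced, while unspliced UMIs held 78.0% of Srsf4.

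The ambiguous UMIs of many of these genes also differed between the rod classes. The files do not show from which stretch of a gene an ambiguous read came. Their share of spliced plus ambiguous UMIs had a median of 6.61% in cytoplasm-rich and 26.9% in nucleus-rich control rods over 30 genes with enough UMIs, against 3.32% and 12.1% over 4692 genes. In light damage it was 7.73% and 25.5% over 31 genes, against 2.72% and 8.16% over 7759. The share was higher in nucleus-rich rods for 28 of 30 genes in control and 28 of 31 in light damage, against 75.1% and 78.0% of all genes. It was higher by over 10 points for 19 and 17 of them, against 37.3% and 27.9% of all genes. Tra2a went from 5.46% (3.72 to 7.71) to 78.5% (75.2 to 81.6) in control and from 3.94% to 64.0% in light damage. Rbm5 went from 7.38% to 66.2% and from 11.5% to 51.8%, Srsf7 from 4.25% to 57.9% and from 3.03% to 47.7%, and Clk1 from 5.03% to 49.4% and from 3.58% to 28.6%. The intervals of the 2 rod classes did not overlap in either library for these 4 genes, nor for others such as Rbm39, Rbm25 and Tra2b. The share of all genes without such overlap was not computed. Ddx5 was alike in both classes of control rods (7.12% and 6.72%), and Rbm3 went the other way, from 93.0% to 63.2% and from 86.1% to 67.8%.

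**Figure D4:**
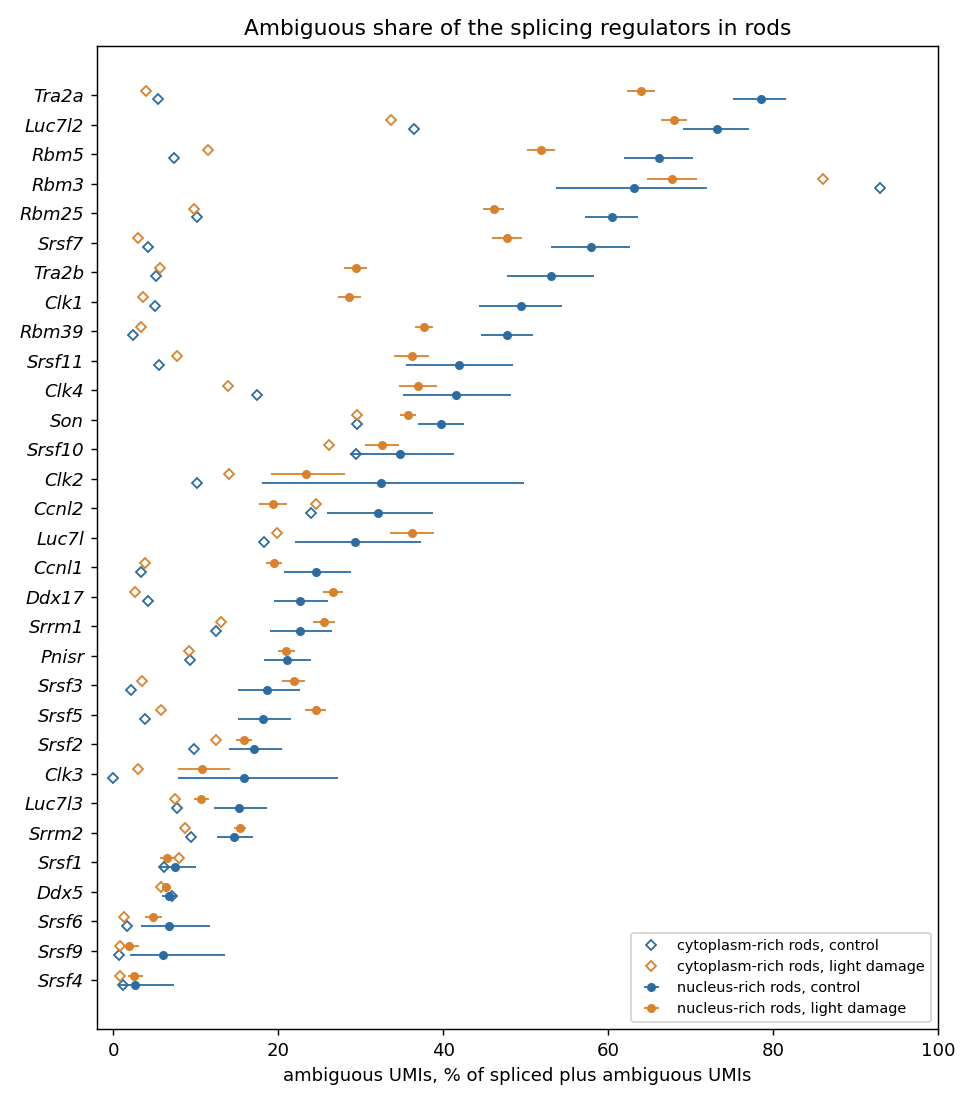
Ambiguous UMIs as % of spliced plus ambiguous UMIs (x axis) of the 31 genes (y axis) in cytoplasm-rich rods (open diamonds) and nucleus-rich rods (filled circles, 95% binomial intervals) of the control (blue) and light damage (orange) library. In nucleus-rich rods Clk1 lies at 49.4% in control and 28.6% in light damage, and Tra2b at 53.0% and 29.4%.

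Next, light damage was compared with control in cytoplasm-rich rods. There the 31 genes changed little: 1 was higher and 1 lower, where 7.87% of 8975 genes were higher and 7.59% lower, and the median was 0.10 (0.01 over all genes). The gene that was higher was Clk1, at 24.1 CPM (179 UMIs) in control and 71.2 CPM (447 UMIs) in light damage, a log2 ratio of 1.40 (1.15 to 1.66). None of the other kinases was past the fold, with Clk2, Clk3 and Clk4 at 0.28, 0.35 and 0.35, of which only the interval of Clk4 left out 0. The gene that was lower was Rbm3, at 67.0 CPM in control and 41.1 CPM in light damage (-0.87, -1.09 to -0.65). Spliced UMIs alone gave 0.12 (-0.59 to 0.83) for Rbm3, so that the lower value lay in its ambiguous UMIs. Srsf7 (-0.58) and Srsf3 (-0.56) lay just short of the fold. The SR proteins as a group had 0 of 10 past the fold and a median of -0.15, with 5 intervals below 0 and 0 above. Over all genes, not matched in UMIs, 24.0% of intervals lay below 0 and 20.5% above, and over the 31 genes 7 lay below and 12 above. Beside these values, all 8 light response genes tested, transcription factors and stress genes such as Junb, Cebpd and Mt2, were higher, with a median of 3.52. This list was chosen with earlier results of these data known, so that its direction is no test. Unspliced UMIs were too few here for all but 4 of the 31 genes. Among genes with at least 500 UMIs the background was 4.06% higher and 6.92% lower.

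In nucleus-rich rods, 4 of the 31 genes were higher in light damage and 0 lower, against 17.7% higher and 9.84% lower of 10173 genes, and 14.5% and 3.75% of those with at least 500 UMIs. The median was 0.28 (0.07 over all genes), and 21 of 31 intervals lay above 0 and 1 below, against 22.3% and 15.4% over all genes. All genes were not matched in UMIs to the 31, and intervals narrow with more UMIs. Ccnl1 was at 367 CPM in control and 729 CPM in light damage (1.04, 0.90 to 1.18), and Tra2b at 295 and 486 CPM (0.77, 0.62 to 0.93). Srsf9 was at 67.6 and 108 CPM (0.72, 0.40 to 1.07) and Srsf4 at 94.5 and 148 CPM (0.70, 0.42 to 0.98). Clk1 was short of the fold, at 328 and 459 CPM (0.54, 0.39 to 0.69), as were Ddx5 (0.55, 0.50 to 0.60) and Srsf6 (0.56, 0.33 to 0.80). The lowest was Tra2a, at 542 CPM in control and 364 CPM in light damage (-0.52, -0.64 to -0.40). Ambiguous UMIs held 78.5% of its spliced plus ambiguous UMIs in control and 64.0% in light damage. With spliced UMIs alone 7 genes were higher and 0 lower, against 18.4% and 10.5% of 9677 genes, with Tra2b at 1.30, Ccnl1 at 1.08 and Clk1 at 0.98. By these UMIs 19 intervals lay above 0 and 0 below, against 20.8% and 14.7% over all genes, not matched in UMIs. The lower value of Tra2a thus rested on its ambiguous UMIs. All 9 light response genes, chosen with earlier results of these data known, were higher, with a median of 4.15. Of the other lists, 3 of 23 hnRNP genes were higher and 0 lower (median 0.16, Hnrnpc at 1.07), and 2 of 38 core spliceosome genes were higher and 1 lower (median 0.10). The share of the 31 genes past the fold did not exceed that of all genes tested, while their median did.

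Unspliced UMIs gave a partly different list. Of 29 genes tested, 10 were higher and 0 lower, against 16.0% higher and 8.51% lower of 10480 genes, and the median was 0.26 (0.05 over all genes). The highest were Srsf3 with 10 control and 119 light damage UMIs (1.24, 0.31 to 2.33) and Srsf7 with 12 and 140 (1.21, 0.36 to 2.20). Ddx5 gave 0.87 (0.52 to 1.24), Clk1 0.86 (0.49 to 1.26), Srsf1 0.79 (0.15 to 1.5), Srsf10 0.74 (0.40 to 1.1) and Ccnl1 0.64 (0.26 to 1.04). The 3 others past the fold, Srsf9, Rbm3 and Srsf5, had intervals that held 0. SR proteins made up 6 of these 10. The lowest was Clk2 at -0.54 (-0.84 to -0.22). Tra2b, the second highest by spliced plus ambiguous UMIs, was at 0.08 (-0.17 to 0.33) by unspliced UMIs.

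Since nucleus-rich rods of the libraries differed in their unspliced share, the comparison was repeated within 4 ranges of it. Of the 31 genes, 18 were higher at 40 to 50% unspliced, 10 at 50 to 60% and 4 at 60 to 70%, where 1 was lower, and 4 of 27 from 70%. Of all genes, 34.2%, 23.7%, 19.2% and 17.7% were higher in these ranges and 11.3%, 11.5%, 8.88% and 7.23% lower. The medians of the 31 genes were 0.61, 0.35, 0.26 and 0.14, beside 0.25, 0.12, 0.08 and 0.11 over all genes. The share of the 31 genes that was higher was thus above that of all genes up to 60% unspliced and below it from there. Ccnl1 gave 1.70 (1.38 to 2.04), 1.46 (1.17 to 1.76), 0.46 (0.21 to 0.72) and 0.13 (-0.19 to 0.47), so that its difference shrank as the unspliced share grew. Clk1 gave 1.25 (0.85 to 1.67), 0.65 (0.36 to 0.94), 0.63 (0.36 to 0.91) and 0.47 (0.15 to 0.80), above 0 in all 4 ranges. Tra2b gave 1.13, 0.83, 0.26 and 0.63, and only the interval at 60 to 70% held 0 (-0.04 to 0.57). By unspliced UMIs 5 of 24, 8 of 24, 3 of 23 and 1 of 22 genes were higher, against 26.9%, 21.3%, 18.0% and 13.9% of all genes, and 2, 0, 1 and 1 were lower, against 16.8%, 13.5%, 8.56% and 6.72%. Luc7l (-0.77, -1.32 to -0.18) and Clk2 (-0.63, -1.44 to 0.30) were the lower genes at 40 to 50%. In intermediate rods, where control and light damage differed in unspliced share (25.3% and 33.3%), mitochondrial UMIs (2.48% and 0.906%) and rod marker UMIs (8.29% and 4.92%), 20 of 31 genes were higher and 0 lower, against 34.1% higher and 13% lower of 7899 genes, with Ccnl1 at 2.43 and Clk1 at 1.70. The part of these differences in the result was not tested. Of the control UMIs of Ccnl1 in intermediate rods, 20.7% came from 1 droplet.

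The make-up of the transcripts of nucleus-rich rods also differed between the libraries. The unspliced share was lower in light damage for 24 of 31 genes, with a median difference of -4.15 points, and of all 7940 genes 75.1% were lower, with a median of -3.61 points. For 15 of the 31 genes the interval lay below 0 and for 0 above, against 35.7% and 2.34% of all genes, which were not matched in UMIs. The largest differences were those of Clk2 (75.5% to 51.9%, -23.6 points, -30.7 to -15.4), Srsf11 (51.8% to 34.5%, -17.2 points) and Ccnl2 (53.9% to 37.3%, -16.6 points). Within the 4 ranges of droplet unspliced share the median differences of the 31 genes were -4.01, -0.28, -0.37 and 0.12 points, beside -1.13, -0.83, -0.08 and -0.02 points over all genes.

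The ambiguous share set some of the 31 genes further apart. Its median difference was -4.05 points over 30 genes and -0.75 points over 4871 genes, of which 10% lay below -10.4 points. It was lower in light damage for 23 of 30 genes, against 58.4% of all genes. Of the 30 intervals 13 lay below 0 and 2 above, those of Srsf5 (6.35 points) and Ddx17 (4.04 points). Over all genes, not matched in UMIs, 19.3% lay below and 3.06% above. Tra2b went from 53.0% to 29.4% (-23.7 points, -28.9 to -18.3), and Clk1 from 49.4% to 28.6% (-20.8 points, -25.8 to -15.7). Tra2a (-14.5 points), Rbm5 (-14.3), Rbm25 (-14.3), Ccnl2 (-12.8), Srsf7 (-10.2) and Rbm39 (-10.1) followed. The spliced share of all UMIs was correspondingly higher, by a median of 5.95 points against 3.80 over all genes. It was 32.9% in control and 58.9% in light damage for Tra2b, 43.7% and 62.1% for Clk1, 16.6% and 36.9% for Clk2, and 31.3% and 50.6% for Ccnl2.

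Within the 4 ranges of the droplet unspliced share the median difference in ambiguous share was -3.12, -0.73, -0.53 and -0.82 points over the members with enough UMIs, and 0 over all genes in each range. Clk1 gave -9.75 (-23.2 to 1.57), -22.8 (-32.4 to -13.1), -15.9 (-24.9 to -6.87) and -15.9 points (-26.3 to -4.99). Its spliced share was higher by 13.5, 17, 12.1 and 12.3 points, with intervals above 0 in all 4 ranges. Tra2b gave -16.8, -14.0 and -17.5 points up to 70% unspliced and -0.52 (-12.1 to 12.2) from there. Tra2a gave -24.8 and -13.3 points up to 60%, then 2.54 (-3.35 to 9.01) and -2.76 (-9.54 to 4.45).

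Some promoters of these genes shared a motif. RefSeq promoters of GRCm38.p6, from 250 bases before to 50 after each start site, were in the table for 27 of the 31 genes (Clk1, Rbm3, Luc7l and Pnisr were not). TGACGTCA, the cAMP response element, which reads alike on both strands, was in 3 of the 35 promoters of these 27 genes, against 1.79% of 32851 promoters. CCAAT (either strand) was in 13 of the 35, against 37.4%, TATAAA in 5, against 13.6%, the heat shock element core GAANNTTC in 3, against 7.86%, the STAT site TTCNNNGAA in 1, against 8.30%, and the AP-1 site TGANTCA in 0, against 7.81%. Counted by gene, TGACGTCA was in a promoter of 3 of the 27 and of 2.03% of all 27025 genes in the table. The 3 genes with TGACGTCA were Ccnl1, Tra2a and Clk4, with its first base 18, 27 and 65 bases before the start site. The 100 bases before the start site, with the motif in capitals, were chr3:65958250-65958349 on the minus strand for Ccnl1, chr6:49264053-49264152 on the minus strand for Tra2a, and chr11:51263014-51263113 on the plus strand for Clk4.
Ccnl1: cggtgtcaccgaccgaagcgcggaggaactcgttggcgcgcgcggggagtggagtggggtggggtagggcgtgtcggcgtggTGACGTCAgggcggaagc
Tra2a: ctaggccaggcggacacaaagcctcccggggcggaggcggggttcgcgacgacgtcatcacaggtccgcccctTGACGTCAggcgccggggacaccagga
Clk4: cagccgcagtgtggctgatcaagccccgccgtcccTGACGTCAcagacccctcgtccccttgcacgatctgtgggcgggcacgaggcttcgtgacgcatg
By spliced plus ambiguous UMIs the 3 genes did not take the same direction in nucleus-rich rods after light. Ccnl1 was at 1.04, Clk4 at 0.13 (-0.07 to 0.33) and Tra2a at -0.52. The lower value of Tra2a rested on its ambiguous UMIs. A match describes the letters in this window and does not show that a factor binds there.

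In RPE-like droplets, 14 of 29 genes tested were higher in light damage and 0 lower, against 24.5% higher and 10.4% lower of 6246 genes, and the median was 0.57 (0.14 over all genes). Ccnl1 was again the highest, at 36.8 CPM (25 UMIs) in control and 229 CPM (530 UMIs) in light damage, a ratio of 2.74 (2.16 to 3.38). Srsf11 was at 20.6 and 77.3 CPM (14 and 179 UMIs; 2.01, 1.23 to 2.91), and Srsf2 at 53.0 and 136 CPM (36 and 316 UMIs; 1.47, 0.97 to 2.01). Pnisr (1.74, 0.88 to 2.73), Rbm25 (1.71, 1.08 to 2.42) and Luc7l (1.68, 0.79 to 2.73) followed. Srsf7 (1.08), Clk4 (1.08), Tra2b (1.05), Clk1 (0.98, 0.19 to 1.88), Rbm3 (0.72), Srsf9 (0.70) and Ddx17 (0.62, 0.02 to 1.26) were also past the fold with intervals above 0, and Ccnl2 (0.68) had an interval that held 0. The lowest was Luc7l2 at -0.03 (-0.45 to 0.40). Clk2 and Clk3 had too few UMIs. RPE-like droplets were the poorest in unspliced UMIs (4.52% in control and 5.22% in light damage) and in the 31 genes, with a median droplet at 2775 and 3363 CPM. Rod marker UMIs, which RPE cells should lack, were at 0.569% and 0.268%, from which free RNA was estimated at 9.02% and 4.92% of UMIs. In free RNA, taken from barcodes under 50 UMIs, Ccnl1 was at 74.6 CPM in control and 191 CPM in light damage. The control value was above its level in control RPE-like droplets (36.8 CPM), and the light damage value below that in light damage ones (229 CPM). The median droplet held 2662 UMIs in control and 6417 in light damage, and up to 22.0% of the control UMIs of 1 gene (Luc7l3) came from 1 droplet. The part of these differences in the result was not tested.

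In cone-like droplets, 19 of 29 genes were higher and 0 lower, against 31.8% higher and 9.46% lower of 4611 genes, with a median of 0.84 (0.26 over all genes). Ccnl1 was at 106 and 468 CPM (53 and 378 UMIs; 2.22, 1.80 to 2.66). Srsf6 (1.44, 0.91 to 2.01), Srsf2 (1.29, 0.93 to 1.67), Luc7l3 (1.18, 0.92 to 1.45), Rbm5 (1.15, 0.71 to 1.61) and Tra2b (1.14, 0.71 to 1.59) came next, and the 13 others past the fold lay between 0.65 and 0.99, Clk1 at 0.99 (0.54 to 1.47) and Clk4 at 0.86 (0.30 to 1.44). Srsf3 was the lowest at -0.51 (-0.83 to -0.19). Of the control UMIs of Rbm5 in cone-like droplets, 25.45% came from 1 droplet. The classes were unlike in their make-up: unspliced UMIs held 26.6% in control and 35.1% in light damage, rod marker UMIs 6.97% and 2.60%, and the median droplet 2828 and 13590 UMIs. By its rod marker UMIs the control class was estimated at 111% free RNA, that is, it could not be told apart from free RNA plus cone markers, against 47.7% in light damage, and this part in the result was not tested.

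In Müller-like droplets, 11 of 23 genes were higher and 0 lower, against 50.2% higher and 13.3% lower of 1164 genes, so that the share lay near the background. The median was 0.58, and 0.56 over all genes. Ccnl1 was at 42.3 CPM (5 UMIs) in control and 444 CPM (92 UMIs) in light damage (3.90, 2.63 to 5.56), Clk1 at 178 and 362 CPM (21 and 75 UMIs; 1.54, 0.82 to 2.31), and Srsf3 at 1.42 (0.83 to 2.03). The 8 others past the fold, Rbm3, Ddx5, Clk4, Tra2b, Srsf5, Srsf11, Srrm2 and Srsf2, lay between 0.75 and 1.25 with intervals above 0, and Srrm1 was the lowest at -0.44 (-1.04 to 0.15). These values rested on 44 and 23 droplets with medians of 2484 and 20305 UMIs, and with marker limits doubled 4 genes were higher and 4 lower of 16, against 23.5% and 41.6% of 493 genes. By rod marker UMIs, free RNA was estimated at 23.9% of UMIs in control and 7.1% in light damage, and up to 26.9% of the control UMIs of 1 gene (Rbm25) came from 1 droplet. The part of these differences in the result was not tested.

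**Figure D5:**
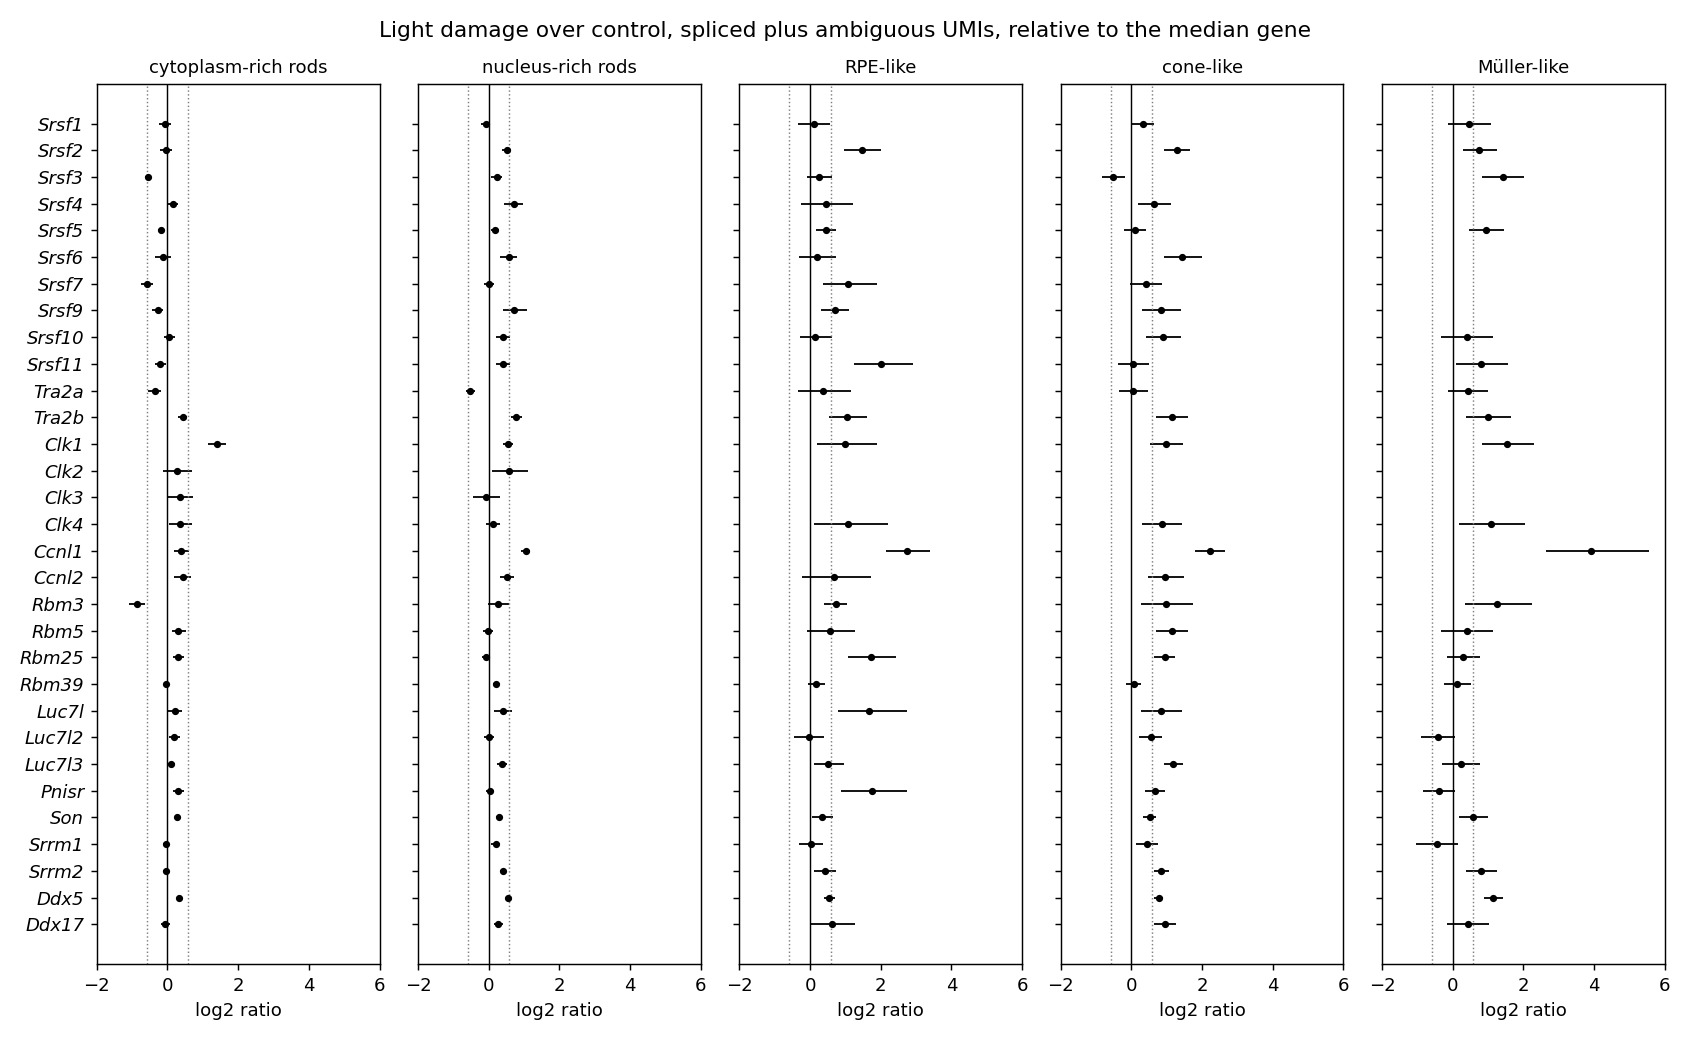
Log2 ratio of spliced plus ambiguous CPM in light damage over control, relative to the median gene (x axis), for the 31 genes (y axis) in 5 droplet classes (panels); points with 95% counting intervals, dotted lines at 1.5-fold, and no point where a gene had under 50 UMIs. Ccnl1 lies at 1.04 in nucleus-rich rods, 2.74 in RPE-like, 2.22 in cone-like and 3.90 in Müller-like droplets, and Clk1 at 1.40 in cytoplasm-rich and 0.54 in nucleus-rich rods.

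Across classes, Ccnl1 was past the fold in every class but cytoplasm-rich rods (0.39, 0.18 to 0.60), and Clk1 in every class but nucleus-rich rods. Free RNA also held more of both in light damage, with Ccnl1 at 74.6 CPM in control and 191 CPM in light damage and Clk1 at 68.3 and 162 CPM. Control cone-like droplets could not be told apart from free RNA plus cone markers. The part of free RNA in these ratios was not tested. The difference between the light ratios of nucleus-rich and cytoplasm-rich rods had a median of 0.27 over the 31 genes, and of 0.04 over 7547 genes with at least 20 UMIs in each sum. It was -0.86 (-1.15 to -0.57) for Clk1, the lowest, and 1.14 (0.78 to 1.49) for Rbm3, the highest, followed by 1.00 (0.64 to 1.36) for Srsf9 and 0.77 (0.61 to 0.93) for Srsf3. These differences lay beyond counting error, but no replicate was there to set them against the spread between animals. The lower cytoplasm-rich value of Rbm3 lay in its ambiguous UMIs, and these differences were not computed with spliced UMIs alone.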

How the data were processed

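Retinal cells were freed of dead cells with magnetic beads and barcoded with 10x Genomics 3′ v3.1 chemistry. Per the study's methods and the submitters' processing notes, the authors quantified reads against a spliced and intronic index of the 10x mm10 reference with Salmon 1.10.1 and alevin 0.8.1 (alevin-fry), on the forward strand. Cell Ranger 7.0.1 is also named in the notes. The deposited files hold UMI counts per barcode and gene, as whole numbers, in separate spliced, unspliced and ambiguous blocks, without normalization or removal of empty droplets. Capture was by oligo-dT. Reads from near-identical copies of a gene (pseudogenes) could have been assigned to either. Whether annotated retained-intron transcripts entered the index was not examined.

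Genes were named by GENCODE vM21. Droplets were kept from 1464 UMIs in control and 1614 in light damage, where the curve of UMIs against barcode rank bends, with under 10% mitochondrial UMIs, and the top 0.8% per 1000 droplets by Scrublet score (scanpy 1.11.5) were left out, which left 3669 and 5593 droplets. 7 barcodes were kept in both libraries. A droplet was named where a marker list held at least 1% (rod, RPE) or 0.5% (cone, Müller) of its UMIs. These limits were set after the marker UMIs had been seen. Rods were split at 15% and 40% unspliced UMIs.

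UMIs were summed per class. Spliced plus ambiguous CPM used the class total of these UMIs, and unspliced CPM that of unspliced UMIs. Intervals were exact Poisson for CPM, Clopper-Pearson (exact binomial) for shares, Newcombe for differences of shares, exact conditional binomial for log2 ratios, and Wald on log counts for differences of ratios. Genes named singly were those past 1.5-fold with an interval that left out 0, and the highest and the lowest of each comparison. Values of other genes are given for completeness of a group. With 1 library per condition, droplets are no replicates, so no p-value was computed. The 31 genes and all lists were chosen with earlier results of these data known. Scripts (python 3.11.15, scipy 1.17.1, pandas 2.3.3) were tested on simulated counts. Alternatives are named in the closing section.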

Additional observations from a re-analysis of the deposited data

Results flagged for a closer look

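4 SR proteins had light ratios of opposite sign in the nucleus-rich and the cytoplasm-rich rods, with both intervals leaving out 0. Of 7547 genes with at least 20 UMIs in each sum, not otherwise matched in UMIs, 4.43% did so. In this direction, higher in nucleus-rich and lower in cytoplasm-rich rods as these 4 were, the share was 3.25%. This difference was not tested, since each condition had 1 library. Srsf9 was at 0.72 in nucleus-rich and -0.28 in cytoplasm-rich rods (log2 ratio of light damage over control, spliced plus ambiguous UMIs). Srsf3 was at 0.22 and -0.56, Srsf11 at 0.41 and -0.20, and Srsf5 at 0.17 and -0.19. Only the value of Srsf9 in nucleus-rich rods was past 1.5-fold. Nucleus-rich rods of light damage held fewer unspliced UMIs than those of control (55.6% against 61.7%), and the part of this in the result was not tested. With light damage droplets weighted to the unspliced shares of the control, Srsf9 was at 0.48 and Srsf3 at 0.03 in nucleus-rich rods, an alternative chosen after seeing the data.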

How the results depend on the processing

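The alternatives were a minimum of 1000 UMIs per droplet, a mitochondrial limit of 5%, no doublet removal, doubled marker limits, rods split at 10% and 50% unspliced, unspliced shares without the 31 genes, subtraction of free RNA, spliced UMIs alone, ratios without centring, and a minimum of 20 UMIs. Of 88 counts of genes, 82 stayed within 1.5 times. Without centring, 26 genes were higher in nucleus-rich control rods, 3 in cytoplasm-rich rods after light and 5 in Müller-like droplets, where 53.2%, 14.9% and 34.3% of all genes were. Spliced UMIs alone gave 7 in nucleus-rich rods after light (18.4% of all genes), the split at 10% and 50% gave 6 by unspliced UMIs (14.8%), and doubled marker limits turned the Müller-like median to -0.08, with 4 higher. Of 2163 single ratios, 1956 stayed inside their interval, 204 left it and 3 reversed: Tra2b in nucleus-rich against cytoplasm-rich control rods (-0.11) and Rbm3 in cytoplasm-rich rods after light (0.12), both by spliced UMIs alone, and Srsf2 in Müller-like droplets with doubled limits (-0.05). The cause was not tested, other than that doubled limits left 16 genes to test. Weighting light damage droplets to the control's unspliced shares, chosen after seeing the data, gave 5 genes higher by spliced plus ambiguous and 8 by unspliced UMIs. Free RNA could not be subtracted from cone-like droplets. No paired analysis was possible because each condition had 1 library. Depth limits the RPE-like and Müller-like controls most, where Ccnl1 rested on 25 and 5 UMIs.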
